A study of Mus musculus with 6 samples.

Results

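The 131 genes described here encode proteins of the extracellular matrix, the integrins that bind it and the metalloproteases that cut it, measured in N2A cells after knockdown of Pbcas4. The rule that defines them uses gene names and no measured values. A probe had to carry exactly 1 gene symbol, and that symbol had to start with Col, Lama, Lamb, Lamc, Itga, Itgb, Adamts, Mmp or Timp in the form used for these families, which leaves out the integrin-binding protein genes whose symbols contain bp. Of 19938 genes with such a probe on the array, 131 met the rule, and the 7 of them with several probes were represented by the probe with the highest mean. N2A is an established mouse neuroblastoma line, grown under standard conditions, with no further genetic change given in the labels. The 3 arrays of the Pbcas4 shRNA condition came from cells transiently transfected with a short hairpin construct against Pbcas4, a mouse unitary pseudogene, and the 3 arrays of the scramble condition from cells transfected with a scramble control. All cells were harvested 72 h after transfection, per the methods, and both conditions share the same line and transfection reagent. As models the conditions are limited to 1 line and 1 hairpin sequence described here, and the share of cells that took up the construct is not given. The probe annotation does not name Pbcas4, so its own level was not analysed here and the knockdown was not checked on these arrays. The methods of the paper report a reproducible but partial decrease of Pbcas4 in these cells, measured by quantitative PCR.

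The extracellular matrix is a network of collagens, laminins, glycoproteins and proteoglycans outside cells. Fibrillar collagens form the cables of connective tissue, whereas type IV collagen and laminins form the sheet-like basement membrane. Integrins are receptors made of 1 alpha and 1 beta subunit, which together decide the matrix ligand that is bound, and which link it to the actin cytoskeleton through adaptors such as talin, Ilk and Lims1. Matrix metalloproteinases (Mmp) and the Adamts proteases cut matrix proteins, and Timp proteins inhibit these enzymes. In neuroblastoma, a tumour of the sympathetic nervous system, integrins and laminins are known for their part in adhesion and neurite outgrowth.

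The sense oligonucleotides of both hairpins, taken from the study's list, are shown because they are the designed difference between the conditions. The capitals mark the bases of the arms that pair with each other when the transcript folds, 18 in the Pbcas4 hairpin and 17 in the scramble hairpin, with 11 bases between the arms in each.
sh-pbcas4: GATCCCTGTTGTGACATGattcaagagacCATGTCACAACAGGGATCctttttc
sh-scramble control: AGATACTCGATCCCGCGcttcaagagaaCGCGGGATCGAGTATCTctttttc

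Values are on the log2 scale, so that a difference of 1 is a doubling, and a difference is always the mean of the shRNA arrays minus the mean of the scramble arrays. Array medians over all probes lay between 7.75 and 7.86. The table holds no detection call. A gene was therefore marked as near background where its mean over the 6 arrays was at or below 7.20, the 95th percentile of the means of 1027 olfactory receptor genes. By this rule 97 of the 131 genes lay above the limit and 34 near background, while 13597 of all 19938 genes lay above it. The 14 measured markers of neuroblastoma and sympathoadrenal cells lay above it, among them Th, Dbh, Chgb and Stmn2. However, 9 of 13 fibroblast, 5 of 6 Schwann cell and glial, 6 of 8 endothelial, 5 of 7 epithelial and 2 of 7 macrophage and leukocyte markers did so too, so that a level above the limit does not by itself show expression. Scramble replicate 1 stood apart. Over the probes of the whole array, which are no independent replicates, it correlated at 0.990 to 0.993 with the shRNA arrays and at 0.987 and 0.988 with the other scramble arrays, so results are also given without it. The first shRNA array too correlated more with scramble replicate 1 (0.992) than with shRNA replicate 2 (0.989), though at 0.993 with shRNA replicate 3.

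No gene of these families was called different between the conditions. At a Benjamini-Hochberg adjusted p under 0.05 from limma with a log2 difference over 0.5 in size, 0 of 131 members and 0 of 19938 genes (0%) passed. The paper, by contrast, reports differentially expressed genes between these conditions, from limma on probes kept by a variance criterion of 0.5. Its result was not reproduced by the fit used here, which reads that criterion as a log2 difference. The reason for the gap was not tested. The lowest adjusted p among the members was 0.297, for Adamts6, a value that no gene tested went below. Without the adjustment, at a p under 0.05 from the same fit, 5 members (3.82%) were higher and 5 (3.82%) were lower in the shRNA arrays, beside 6.22% and 5.46% of all genes. The 3 shRNA arrays lay wholly above the 3 scramble arrays for 10 members (7.63%, of which 4 near background) and wholly below for 6 (4.58%, of which 2 near background), beside 9.13% and 7.63% of all genes. The shares of members were below those of all genes in both directions, but the counts are small and the gap was not tested. The median log2 difference was -0.007 over the 97 members above the limit and 0.005 over all such genes. The differences themselves were small for most members. Of the 131, 114 (87.0%) lay within 0.2 of zero in either direction, against 74.0% of all genes, and the median size of the difference was 0.072 for members and 0.101 for all genes. A log2 difference over 0.5 in size was measured for 8 members, 3 higher and 5 lower. The counts at an unadjusted p rest on single arrays. The count of higher members was 8 without shRNA replicate 1, 2 without shRNA replicate 2, shRNA replicate 3 or scramble replicate 3, and 3 without scramble replicate 2, and the count of lower members was 8 without scramble replicate 1. Fewer arrays overlap less by construction, and the members wholly below were then 29 without scramble replicate 1 and 12 without shRNA replicate 1, and those wholly above were 30 without shRNA replicate 2. For the runs with 1 array left out, no share of all genes is given here. Their counts are therefore not read as results about the members. With the replicate number as a block, a pairing that the labels do not state, 4 members (3.05%) were higher and 8 (6.11%) lower at an unadjusted p under 0.05, beside 7.2% and 7.35% of all genes. With limma's array weights, which gave shRNA replicate 3 a weight of 5.32 and scramble replicate 1 a weight of 0.353, 8 members (6.11%) were called, beside 6.62% of all genes.

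**Figure D1:**
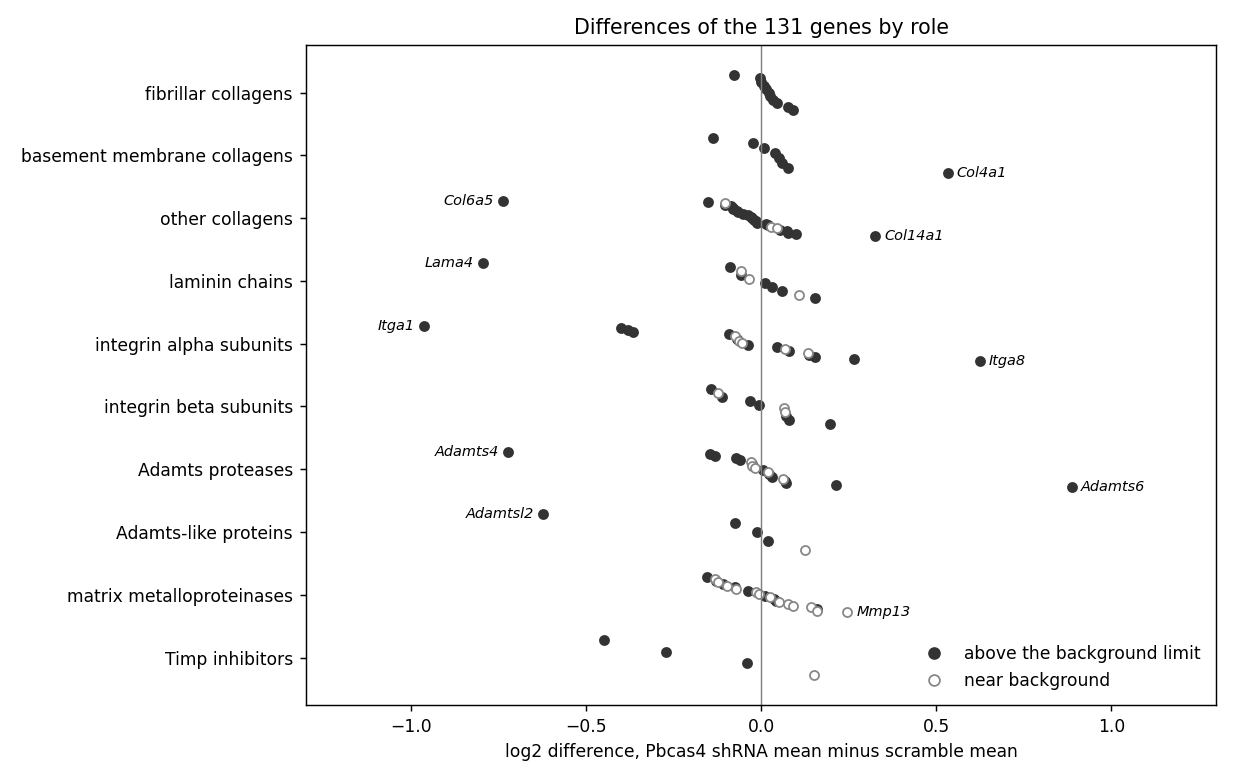
Log2 difference (Pbcas4 shRNA mean minus scramble mean, x axis) of each of the 131 genes, grouped by role (y axis); filled points are the 97 genes above the background limit, open points the 34 near background, and the vertical spread within a row only separates points. The 10 genes at an unadjusted p under 0.05 are named, and 114 of the 131 points lie within 0.2 of zero.

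The fibrillar collagens had the smallest median size of difference among the 10 roles, at 0.025. Each of the 11 genes, among them Col1a1 and Col1a2 (the chains of type I collagen), Col3a1 and Col2a1, lay above the background limit, and their differences ran from -0.08 (Col5a2) to 0.09 (Col1a1), with 0 at an unadjusted p under 0.05 and 0 with non-overlapping arrays. Col1a1 was at 8.73, 8.43 and 8.68 in the shRNA arrays and at 8.44, 8.55 and 8.58 in the scramble arrays, and the conditions overlapped. The scramble means of the 11 genes ran from 7.42 (Col5a2) to 8.87 (Col2a1). Some markers of other cell types, such as Sox10 (glial, 7.95) and Cldn4 (epithelial, 8.34), had scramble means in this range. Whether these collagens were expressed was not tested, so their small differences are not read as unchanged expression.

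Among the 8 basement membrane collagens, Col4a1 stood apart from the other 7, whose differences lay between -0.14 (Col18a1) and 0.08 (Col4a4). Col4a1 encodes the alpha1 chain of type IV collagen, which assembles with the product of Col4a2 into the commonest trimer of basement membranes. Its log2 level was 9.48, 10.17 and 10.10 in the shRNA arrays, against 9.43, 9.36 and 9.36 in the scramble arrays. The difference was 0.53 (standard error 0.19, a 1.45-fold higher mean), with an unadjusted p of 0.0265 and an adjusted p of 0.437 from limma. The conditions did not overlap, but shRNA replicate 1 lay within 0.05 of scramble replicate 1, whereas the other pairs of the same number differed by 0.81 and 0.74. Without shRNA replicate 1 the difference was 0.75, and without scramble replicate 1 it was 0.56. Col4a2 was at 10.09, 10.90 and 10.56 in the shRNA arrays and at 10.37, 10.51 and 10.65 in the scramble arrays. Its conditions overlapped fully and the difference was 0.008 (unadjusted p = 0.970). The difference between these genes was not itself tested.

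Col4a1 and Col4a2 lie head to head and are known to be transcribed in opposite directions from a shared region, which is why their start regions are shown. Both sequences are from RefSeq on GRCm38.p6 and run 5′ to 3′ on the strand of the gene, from 250 bases before to 50 bases after its annotated start. Col4a1 is at chr8:11312777-11313076 on the minus strand and Col4a2 at chr8:11312555-11312854 on the plus strand. The capitals mark the 78 bases that the windows share, read on opposite strands.
Col4a1: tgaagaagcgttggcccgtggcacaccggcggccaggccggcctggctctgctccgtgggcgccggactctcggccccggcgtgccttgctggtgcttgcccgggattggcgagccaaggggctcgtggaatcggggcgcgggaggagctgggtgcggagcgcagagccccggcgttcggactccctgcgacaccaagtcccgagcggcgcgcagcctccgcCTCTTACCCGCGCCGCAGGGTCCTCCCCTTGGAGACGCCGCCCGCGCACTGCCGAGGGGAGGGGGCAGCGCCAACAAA
Col4a2: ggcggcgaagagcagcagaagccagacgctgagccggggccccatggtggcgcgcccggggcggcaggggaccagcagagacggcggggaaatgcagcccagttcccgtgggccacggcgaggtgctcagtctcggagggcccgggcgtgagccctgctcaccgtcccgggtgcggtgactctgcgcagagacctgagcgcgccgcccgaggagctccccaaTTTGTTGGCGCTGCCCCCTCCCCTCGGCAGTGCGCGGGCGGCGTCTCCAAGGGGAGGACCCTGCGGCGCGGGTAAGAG
The windows are rich in G and C (74% and 73.7%). Searched on both strands, each holds the letters CCAAT and GGGCGG, the core of a GC box, and neither holds TATAAA, the core of a TATA box. Of the 94 members with a promoter in the table, 26.6% hold CCAAT, 56.4% GGGCGG and 17.0% TATAAA, beside 39.0%, 46.3% and 13.3% of 17491 protein-coding genes. A match is a description of these letters and not evidence of a bound factor. The other head-to-head pairs of type IV genes had small differences. Col4a3 and Col4a4 had differences of 0.06 and 0.08, and Col4a5 and Col4a6 of 0.04 and 0.05.

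Of the 25 other collagens, 22 lay above the limit, and Col14a1 and Col6a5 had an unadjusted p under 0.05, in opposite directions. Col14a1 encodes a collagen that sits on the surface of fibrils. It was at 8.23, 8.16 and 8.19 in the shRNA arrays and at 7.90, 7.83 and 7.87 in the scramble arrays, and within each condition its arrays lay close together. The difference of 0.33 (standard error 0.08) had an unadjusted p of 0.0045 and an adjusted p of 0.363 from limma, and it was 0.34 without scramble replicate 1. It was 0.32 to 0.33 in each of the 3 pairs of the same number, a pairing that the labels do not state. With the replicate number as a block its unadjusted p from limma was larger, at 0.0149. Col6a5 encodes an alpha chain of type VI collagen, the beaded-filament collagen found around cells. It was at 10.45, 11.18 and 10.71 in the shRNA arrays and at 11.03, 11.62 and 11.91 in the scramble arrays. The highest shRNA array overlapped the lowest scramble array, while each shRNA array was below the scramble array of its number. Its difference was -0.74 (standard error 0.27, unadjusted p = 0.0317, adjusted p = 0.459 from limma), or -0.98 without scramble replicate 1. A second probe of Col6a5 gave -0.51 at an unadjusted p of 0.110. The genes on either side, Col6a6 and Col6a4, had differences of 0.02 and -0.05 with overlapping conditions.

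Among the 10 laminin chains, 7 of them above the limit, Lama4 was the one at an unadjusted p under 0.05. Lama4 encodes the alpha4 chain, known from the basement membranes of vessels and peripheral nerve. Its level was 9.37, 9.88 and 9.46 in the shRNA arrays, against 9.96, 10.34 and 10.80 in the scramble arrays. The conditions did not overlap, with a gap of 0.08 between shRNA replicate 2 and scramble replicate 1. The difference was -0.79 (standard error 0.24, a 1.73-fold lower mean, unadjusted p = 0.0132, adjusted p = 0.406 from limma) and -0.997 without scramble replicate 1. Lamb1 (beta1 chain) was at 7.39, 7.51 and 7.40 against 7.27, 7.36 and 7.21. Its arrays did not overlap, but the difference of 0.16 had an unadjusted p of 0.120. Lamc1, which encodes the gamma1 chain found in most laminin trimers, was at 11.93 to 12.38 in the shRNA arrays and 12.04 to 12.18 in the scramble arrays, with a difference of 0.01.

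The integrin alpha subunits held the widest range of differences among the receptors. Of 18 genes, 13 lay above the limit, 12 differed by less than 0.2, and 1 in each direction was at an unadjusted p under 0.05. Itga1 encodes alpha1, which with beta1 forms a receptor for collagens and laminins. It was at 9.78, 10.46 and 10.04 in the shRNA arrays and at 10.81, 11.17 and 11.20 in the scramble arrays, so that every shRNA array lay below every scramble array, by at least 0.35. Its difference was -0.96 (standard error 0.20, a 1.95-fold lower mean), the most negative of the 131 genes, with an unadjusted p of 0.0021 and an adjusted p of 0.348 from limma. It was -0.81 to -1.15 when any 1 array was left out. By unadjusted p Itga1 ranked 151 among all genes. Itga2, its neighbour on the chromosome, whose product forms another collagen receptor with beta1, was at 8.90, 11.12 and 10.68 in the shRNA arrays and at 9.93, 10.79 and 11.19 in the scramble arrays. Its conditions overlapped, with shRNA replicate 1 more than 1 below every other array, and the difference of -0.40 had a standard error of 0.61 (unadjusted p = 0.530).

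Itga8, the alpha subunit of a receptor for nephronectin and other ligands with an RGD motif, was at 8.47, 9.24 and 9.15 in the shRNA arrays and at 8.66, 8.32 and 7.99 in the scramble arrays. The first shRNA array lay below the first scramble array, and the other pairs ran the opposite way. The difference was 0.62 (standard error 0.25, unadjusted p = 0.0452, adjusted p = 0.483 from limma), 0.87 without shRNA replicate 1, 0.79 without scramble replicate 1 and 0.46 without scramble replicate 3. With the replicate number as a block its unadjusted p was 0.0698. Itgav, whose product binds fibronectin and vitronectin with several beta subunits, was at 11.36, 11.72 and 11.56 against 11.35, 11.26 and 11.23. Its conditions were parted by less than 0.01, and the difference of 0.27 had an unadjusted p of 0.0546. The laminin-binding subunits Itga6 and Itga3 both had a lower mean after knockdown. Itga6 was at 12.40, 13.11 and 12.93 against 13.10, 13.20 and 13.28, a difference of -0.38 (unadjusted p = 0.0830), and Itga3 was at 7.75, 8.46 and 8.30 against 8.12, 8.62 and 8.87, a difference of -0.36 (unadjusted p = 0.191). For both, the conditions overlapped while each shRNA array was below its scramble array of the same number, and the unadjusted p with the replicate number as a block was 0.0421 and 0.0252. Without shRNA replicate 1 the difference of Itga6 was -0.17 and that of Itga3 -0.15, and that of Itga3 was -0.20 without scramble replicate 3 and -0.57 without scramble replicate 1. Itga5, the fibronectin receptor subunit, and Itga7, a laminin receptor subunit of muscle, differed by 0.14 and 0.15 at unadjusted p-values of 0.166 and 0.251.

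**Figure D2:**
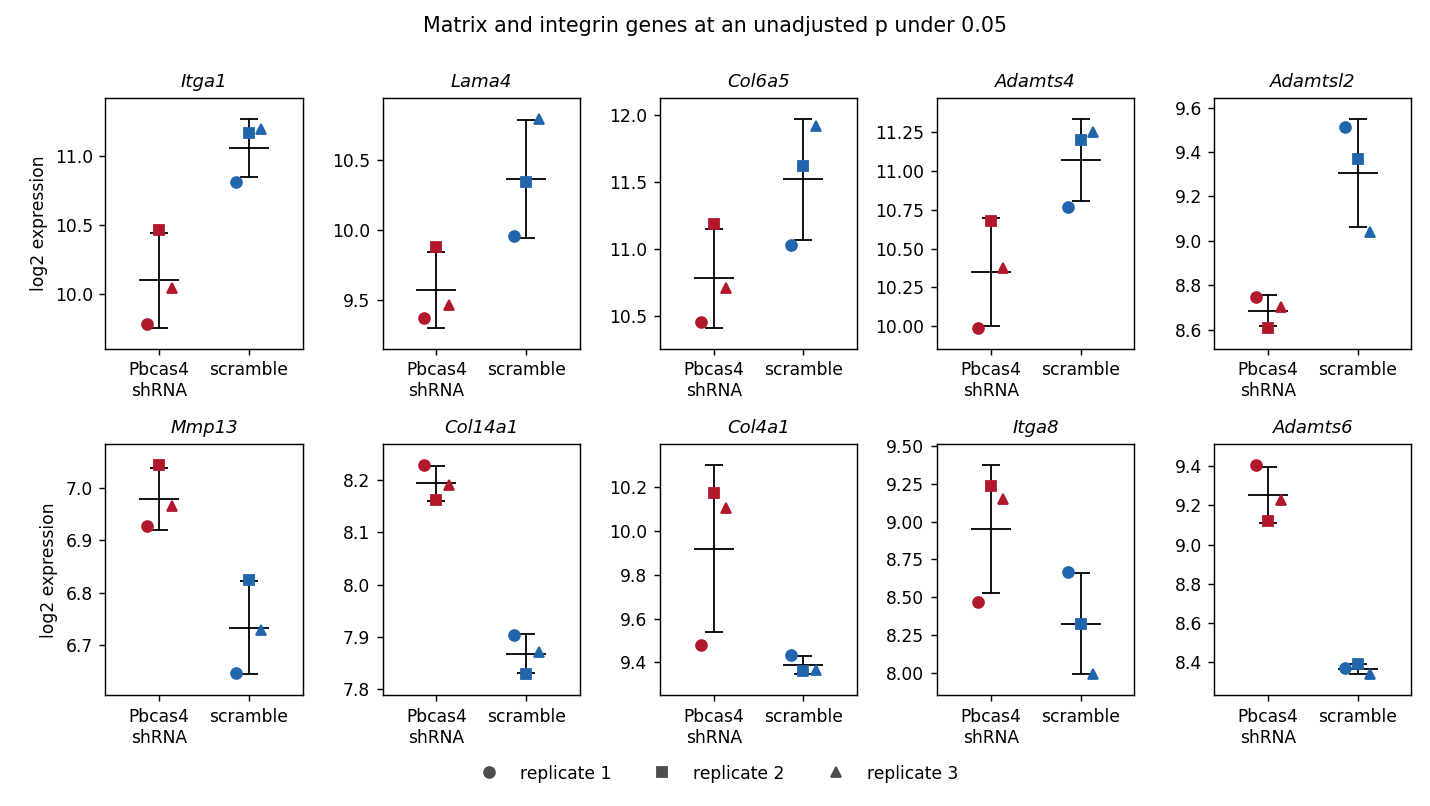
Log2 expression (y axis, a separate scale in each panel) of the 10 members at an unadjusted p under 0.05 in the 3 Pbcas4 shRNA and 3 scramble arrays; symbols give the replicate number, with the mean and its SD over 3 arrays as bars. The arrays of the conditions do not overlap in 8 of the 10 panels, and they overlap for Col6a5 and Itga8.

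The 10 integrin beta subunits, 7 above the limit, had differences within 0.2 in size, and 0 were at an unadjusted p under 0.05. Itgb1, the partner of most of the alpha subunits named above, was at 12.92, 13.12 and 13.03 in the shRNA arrays and at 13.03, 13.21 and 13.15 in the scramble arrays. The conditions overlapped and the difference was -0.11 (unadjusted p = 0.284). Itgb5 differed by -0.007, Itgb3 by 0.20 (unadjusted p = 0.355) and Itgb4 by -0.14. Itgb2l, a gene related to the leukocyte subunit, had non-overlapping arrays but a difference of 0.08. Of the leukocyte subunits, Itgam, Itgax and Itgae were near background, whereas Itgal, Itgad, Itgb2 and Itgb7 lay above the limit. Itgam is also on 3 probes that the annotation shares with Rpl35, which were not used.

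Proteases of the Adamts family gave the difference with the lowest p of the 131 genes, and another over 0.5 in size in the opposite direction. Adamts6 is a secreted metalloprotease implicated in the assembly of microfibrils. Its level was 9.40, 9.12 and 9.23 in the shRNA arrays, against 8.37, 8.39 and 8.34 in the scramble arrays, and the lowest shRNA array was 0.73 above the highest scramble array. The difference was 0.89 (standard error 0.10, a 1.85-fold higher mean), with an unadjusted p of 6.1e-05 and an adjusted p of 0.297 from limma. The gene ranked 6 among all genes by p, and its difference was 0.81 to 0.95 when any 1 array was left out. With the replicate number as a block its unadjusted p from limma was 3.3e-04. Adamts4, an enzyme that cuts the proteoglycan aggrecan, was at 9.99, 10.68 and 10.38 in the shRNA arrays and at 10.77, 11.20 and 11.25 in the scramble arrays. The conditions were parted by 0.09. The difference was -0.72 (standard error 0.21, unadjusted p = 0.0115, adjusted p = 0.401 from limma) and -0.88 without scramble replicate 1. Of the 18 Adamts genes 13 lay above the limit, and 15 differed by less than 0.2. Adamts1, which also cuts aggrecan and versican, differed by 0.21 (unadjusted p = 0.270; 0.40 without shRNA replicate 1, 0.09 without shRNA replicate 2 and 0.13 without scramble replicate 1), and Adamts10 and Adamts13 by -0.13 and -0.15, with overlapping conditions.

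Adamts-like proteins share the ancillary domains of this family but lack the protease domain. Adamtsl2, which binds fibrillin and a latent TGF-beta binding protein, was at 8.75, 8.61 and 8.70 in the shRNA arrays and at 9.51, 9.37 and 9.04 in the scramble arrays. The conditions did not overlap, with a gap of 0.29. The difference was -0.62 (standard error 0.14, unadjusted p = 0.0029, adjusted p = 0.355 from limma) and -0.52 without scramble replicate 1. The other 4 members of the group differed by less than 0.2, among them Adamtsl3, which was near background.

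Most matrix metalloproteinases were near background. This held for 13 of 22 genes, including the collagenase genes Mmp8, Mmp13, Mmp1a and Mmp1b and the stromelysin genes Mmp3 and Mmp10, which belong to a run of 10 neighbouring Mmp genes that were near background throughout. Mmp13 was at 6.93, 7.04 and 6.97 in the shRNA arrays and at 6.65, 6.82 and 6.73 in the scramble arrays, each below the background limit of 7.20. The difference of 0.25 had an unadjusted p of 0.0283 and an adjusted p of 0.446 from limma. Among the 9 genes above the limit, 0 were at an unadjusted p under 0.05. Mmp2 (gelatinase A) was at 7.81, 7.67 and 7.90 against 7.58, 7.67 and 7.64, with a difference of 0.16 (unadjusted p = 0.134). Mmp14, the membrane-bound protease that activates Mmp2, differed by 0.01, and Mmp9 (gelatinase B) by -0.11.

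The inhibitors Timp1, Timp2 and Timp3 lay above the limit and Timp4 did not. Timp2, which inhibits the metalloproteinases and also takes part with Mmp14 in the activation of Mmp2, was at 9.08, 10.20 and 9.82 in the shRNA arrays and at 9.44, 10.46 and 10.54 in the scramble arrays. Replicate 1 was the lowest array of both conditions. The conditions overlapped, and the difference of -0.45 had an unadjusted p of 0.284, but the 3 pairs of the same number differed by -0.37, -0.26 and -0.72, and with the replicate number as a block the unadjusted p was 0.0148 (adjusted p = 0.288 from limma). The unblocked difference rested on single arrays. It was -0.14 without shRNA replicate 1, -0.25 without scramble replicate 3, -0.29 without scramble replicate 2, -0.70 without shRNA replicate 2 and -0.80 without scramble replicate 1. Timp1 was at 8.08, 8.996 and 8.84 against 9.23, 8.84 and 8.65, a difference of -0.27 (unadjusted p = 0.349) that rested on shRNA replicate 1. Without that array it was 0.01. Timp3 differed by -0.04.

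**Figure D3:**
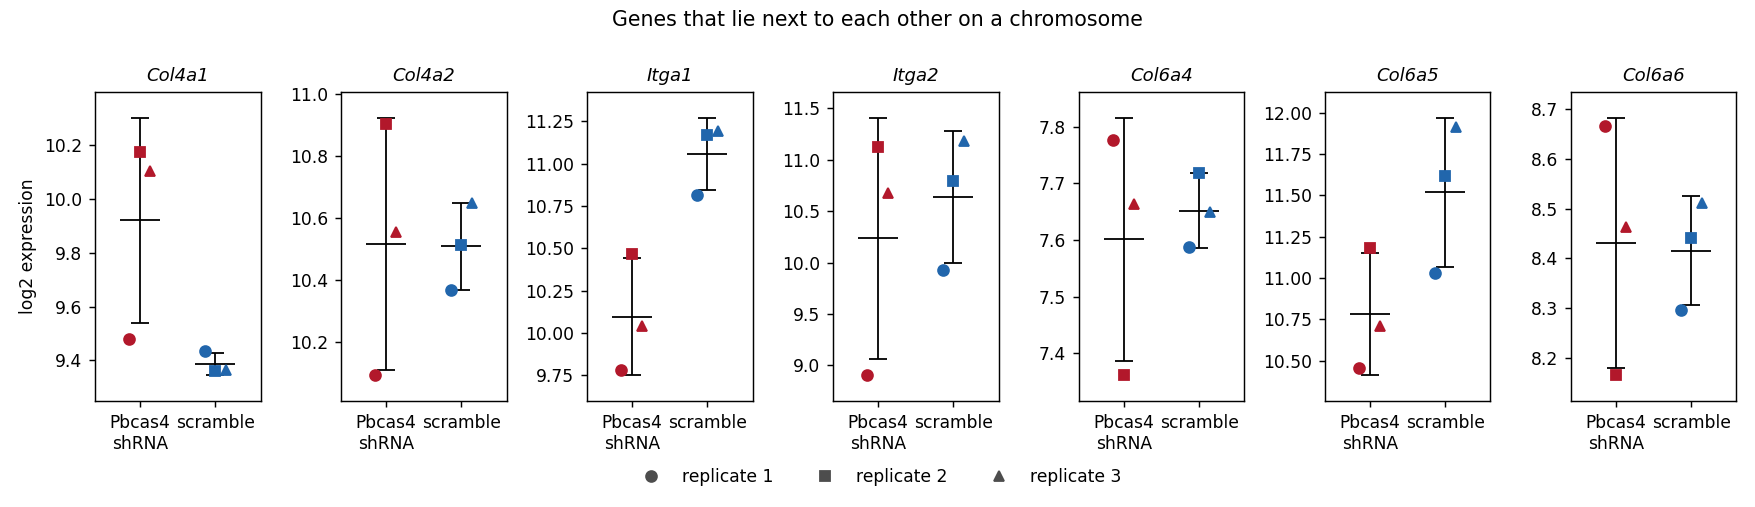
Log2 expression (y axis, a separate scale in each panel) of Col4a1 and Col4a2, Itga1 and Itga2, and Col6a4, Col6a5 and Col6a6, which are neighbours on their chromosomes; symbols give the replicate number, with the mean and its SD over 3 arrays as bars. Col4a1, Itga1 and Col6a5 had differences of 0.53, -0.96 and -0.74, beside 0.008, -0.40, -0.05 and 0.02 for Col4a2, Itga2, Col6a4 and Col6a6.

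Some members varied widely within the conditions, although the typical spread was near that of all genes. The median SD within conditions, pooled over both, was 0.142 for the 131 members and 0.137 for all genes. The 15 members with the largest SD within conditions, a list made after their values were seen, were Itga2, Timp2, Mmp19, Col6a5, Lama5, Timp1, Itga8, Itga3, Mmp11, Lama4, Itgb4, Timp3, Adamts4, Col4a2 and Itgb3. Of these 15, shRNA replicate 1 was the lowest shRNA array for 15 and scramble replicate 1 the lowest scramble array for 13, the exceptions being Timp1 and Itga8, whose lowest scramble array was replicate 3. Over all 131 members, by contrast, the lowest shRNA array was more often replicate 2 (86 members) than replicate 1 (37 members). The same order held over all 19938 genes, with 8493 and 6827, though replicate 2 was the lowest for a smaller share of them. The median over all probes was also lowest in shRNA replicate 2, at 7.75, against 7.82 to 7.86 in the other arrays. The part of this offset in the counts was not tested. Scramble replicate 1 was the lowest scramble array for 92 of the 131 members and for a smaller share of all genes, 9274 of 19938. Both arrays numbered 1 were the lowest of their condition for 86.7% of the 15 members, beside 50.6% of the 2044 genes with at least the same SD, 22.1% of all 131 members and 19.3% of all genes. In Mmp19, for example, replicate 1 was at 7.32 in the shRNA and 7.49 in the scramble condition, whereas the other 4 arrays lay between 8.18 and 8.34. Lama5, the alpha5 laminin chain, was at 8.54 and 8.73 in the arrays numbered 1 and at 9.12 to 9.51 in the others. Over 22 mitosis and S phase genes the array means ran the other way and were 12.26, 12.03 and 12.03 in the shRNA arrays, against 12.11, 11.25 and 10.80 in the scramble arrays, highest in replicate 1 of both conditions. Between the conditions, 22 of these 22 genes had a higher mean after knockdown, 19 of them by over 0.5, with a median log2 difference of 0.74. At an unadjusted p under 0.05, 8 were higher and 0 lower, beside 6.22% and 5.46% of all genes, and 0 were called. The part of cell cycle state, or of anything else that differs between replicates, in these values was not tested.

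**Figure D4:**
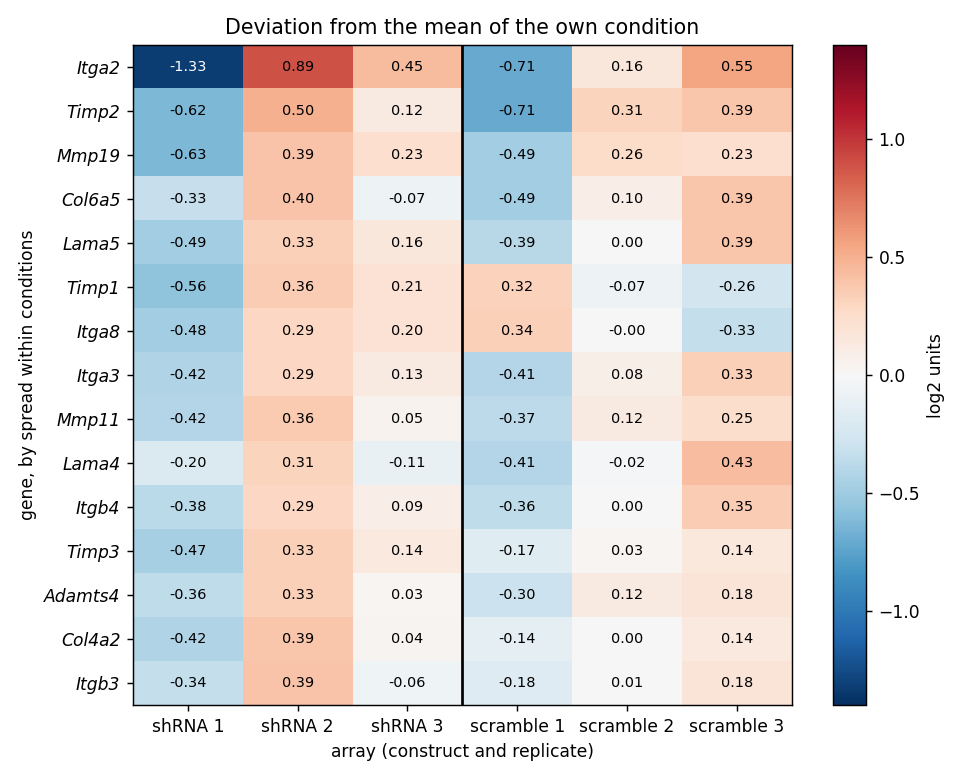
Deviation of each array (x axis) from the mean of its own condition, in log2 units (colour and printed value), for the 15 members with the largest SD within conditions (y axis). Replicate 1 is below the mean in the shRNA condition for all 15 genes and in the scramble condition for 13, the exceptions being Timp1 and Itga8.

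Genes that act beside these families were read from separate lists. Of 27 genes of collagen synthesis and cross-linking, 1 was higher and 5 were lower at an unadjusted p under 0.05, beside 6.22% and 5.46% of all genes, and 0 were called. Pcolce, which enhances the removal of the carboxy-terminal propeptide of procollagens, was at 11.63, 12.17 and 12.04 in the shRNA arrays and at 12.35, 12.48 and 12.50 in the scramble arrays. Every shRNA array lay below every scramble array, and the difference was -0.50 (unadjusted p = 0.0143, adjusted p = 0.414 from limma). P3h3 differed by -0.46 and its relative P3h1, a prolyl 3-hydroxylase of procollagen, by 0.40. Mia3, which helps load procollagen into vesicles, and P4ha2, a prolyl 4-hydroxylase subunit, differed by -0.24 and -0.31.

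Of 23 integrin adaptors and signalling genes, 2 were higher and 2 lower at an unadjusted p under 0.05, beside 6.22% and 5.46% of all genes, and 0 were called. Lims1, which with Ilk and a parvin forms a complex at integrin tails, was at 11.32, 11.10 and 10.93 in the shRNA arrays and at 11.71, 11.79 and 11.87 in the scramble arrays. The conditions did not overlap, and the difference was -0.67 (unadjusted p = 0.0010, adjusted p = 0.344 from limma). Its partner Ilk differed by -0.38 (unadjusted p = 0.0308). Lims2, by contrast, differed by 0.27 with non-overlapping arrays, and the parvin genes Parva and Parvb by -0.19 and 0.009 with overlapping conditions. Tln2, a talin that binds integrin beta tails, differed by 0.40, and Itgb3bp, whose product is known as a centromere protein despite its name, by 0.56 with overlapping conditions.

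Of 20 other matrix proteases and inhibitors, 3 were higher, 1 of them (Plau) near background, and 0 lower at an unadjusted p under 0.05, beside 6.22% and 5.46% of all genes. Adam10, a membrane protease that sheds the outer parts of surface proteins, was at 11.33, 11.67 and 11.46 in the shRNA arrays and at 10.98, 10.96 and 11.003 in the scramble arrays. The scramble arrays lay within 0.05 of each other and below every shRNA array, and the difference was 0.51 (unadjusted p = 0.0025, adjusted p = 0.348 from limma). Adam12 differed by 0.38 and Plau, the urokinase, by 0.43. Of 34 other matrix proteins, such as Matn4, Eln and Bcan, 0 were at an unadjusted p under 0.05.

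Markers of other cell types had array means that overlapped between the conditions. The array means of the 13 fibroblast and mesenchymal markers were 7.84 to 7.87 in the shRNA arrays and 7.64 to 7.94 in the scramble arrays, and those of the 8 endothelial markers were 7.43 to 7.54 and 7.33 to 7.65. For epithelial markers they were 7.49 to 7.67 and 7.51 to 7.65, for macrophage and leukocyte markers 6.59 to 6.77 and 6.68 to 6.73, and for Schwann cell and glial markers 7.91 to 7.96 and 7.83 to 8.08. Single markers differed in both directions, with Pdgfra at 0.55 (unadjusted p = 0.0052 from limma), Tek at 0.46 and Vwf at -0.31. Pdgfrb was at -0.57 with overlapping conditions (unadjusted p = 0.401 from limma). Of the 13 fibroblast markers 7 had a higher and 6 a lower mean after knockdown, and of the 8 endothelial markers 4 and 4. The fibroblast markers Lum, Fap, Prrx1 and Tagln were near background. The neuroblastoma list had array means of 11.57 to 11.68 in the shRNA arrays and 11.98 to 12.18 in the scramble arrays, with 6 of 14 markers lower and 0 higher at an unadjusted p under 0.05, beside 5.46% and 6.22% of all genes. In bulk RNA, fewer cells of a type and less RNA per cell cannot be told apart. The part of any shift in cell state in the values of the matrix and integrin genes was not tested.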

How the data were processed

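RNA from 3 Pbcas4 shRNA and 3 scramble samples was hybridised to Affymetrix Mouse Gene 1.0 ST arrays (200 ng of RNA each). The deposited values are on the log2 scale, summarized to 1 value per probe and normalized by the authors, and which background correction, summary and normalization they used is not given in the sources used here. No further normalization was applied. Transfections were in triplicate per the methods, so the spread within a condition is read as that between transfections. A limma p-value sets the difference of the condition means against this spread. The variance of each probe is drawn towards that of all probes, and the precision is set by the number of arrays.

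Probes were named from the platform annotation, and the 131 symbols are those of the RefSeq table (GRCm38.p6), which also gave neighbours. limma 3.58.1 in R 4.3.3 (lmFit, eBayes) was fitted to all 35556 probes with 1 term for the construct, as a two-sided test, and p-values were adjusted by Benjamini-Hochberg over every probe. The methods ask for a corrected p under 0.05 and for over 0.5 of variance between conditions, which was read as a log2 difference between the condition means. The fit was tested on simulated data. An exact permutation test over the 3 against 3 arrays cannot go below 0.1. Named members are the 24 above the background limit with the lowest p, those near background at an unadjusted p under 0.05, and up to 3 genes of each other list. Other members and list genes are named as examples, chosen after their values were seen. The members and lists were chosen with earlier results of these data known.

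Neither the labels nor the methods say that equal replicate numbers mark matched transfections. After the mean of each condition was removed, arrays of the same replicate number correlated over probes at 0.291, 0.137 and 0.103. On these same data the number was read as a possible pairing and fitted as a block in an alternative. The correlation of shRNA replicate 2 with scramble replicate 3 was higher (0.199). Further alternatives were quantile normalization, centring on array medians, array weights, a trended and robust variance, other background limits, no size criterion, the mean of a gene's probes, a filter on dim probes, and leaving out each array or both arrays numbered 1. Figures were drawn with matplotlib 3.10.9.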

Additional observations from a re-analysis of the deposited data

How the results depend on the processing

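The count of called members was 0 under each alternative except array weights, where 8 were called (Adamts6, Itga1, Adamtsl2, Adamts4, Lama4, Col4a1, Col6a5 and Itga8). Array weights also gave 14 higher and 11 lower members at an unadjusted p under 0.05 (9 and 10 above the background limit), against 5 and 5 (4 and 5). The replicate block gave 8 lower members, 8 of them above the limit, with Itga6, Itga3 and Timp2 added and Itga8 lost from the higher ones, and it changed no other call among the members. With this block the lowest adjusted p from limma was 0.230 among the members and 0.0174 among all probes. Without both arrays numbered 1 there were 8 lower members, 7 higher and 8 lower ones above the limit, and 16 and 44 with non-overlapping arrays, against 10 and 6. The last counts grow by construction with fewer arrays. Apart from the shares given above for the replicate block and the array-weight calls, no share of all genes is given for the alternatives. With dim probes filtered out the higher non-overlapping members were 6 and the lower ones 4, since near-background members drop out. Leaving out 1 array at a time gave 0 to 0 called members, 2 to 8 higher and 4 to 8 lower at an unadjusted p (2 to 7 and 4 to 8 above the limit), and 10 to 30 and 6 to 29 non-overlapping. The highest of these were without shRNA replicate 2 (30) and without scramble replicate 1 (29), and 12 lower ones did not overlap without shRNA replicate 1. The median log2 difference of the members ran from -0.067 to 0.042 in these runs, and was -0.007 with all arrays. Named members were chosen by their p on these same arrays, which favours a kept direction. Of the 25, 24 kept their direction under every alternative that gave them a value. The exception was Timp1 (-0.27), which ran from -0.45 (without shRNA replicate 2) to 0.011 (without shRNA replicate 1) when 1 array was left out and was at 0.17 without both arrays numbered 1.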
